A study of Mus musculus with 8 samples.

Results

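Superoxide dismutases, catalase, glutathione peroxidases and a peroxiredoxin, together with the transcription factor Nrf2 and one of its targets, were examined in mouse epididymal fat, a white visceral depot. The 10 genes, Sod1, Sod2, Sod3, Cat, Gpx1, Gpx3, Gpx4, Prdx1, Nfe2l2 and Nqo1, were taken by symbol from the 34866 genes of the deposited table. The choice used no measured value directly, but earlier results of these data were known when it was made. All 10 were among the 12480 genes that passed the low-count filter. There were 8 libraries, 4 from each of 2 genotypes. The control genotype, Aromatase flox/flox, carries loxP sites at the aromatase gene Cyp19a1 on both copies. The knockout genotype, aP2-Cre;Aromatase flox/flox, carries the same alleles and a Cre transgene. Aromatase converts androgens into oestrogens. The aP2 (Fabp4) promoter drives Cre in adipocytes, and its activity in macrophages and endothelial cells is also known, so the deletion is not limited to one cell type by design. The controls lack Cre, so the transgene and the deletion cannot be told apart. The labels give no ages and do not say whether each library is a separate animal, so the p-values measure the spread between these libraries. The study set out to look for genes downstream of Cyp19a1 in fat that bear on phosphorus metabolism; antioxidant genes are a further group in the same libraries.

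Superoxide, which leaks from the respiratory chain and is made by oxidases, is converted by superoxide dismutases to hydrogen peroxide. Hydrogen peroxide is then removed by catalase, by glutathione peroxidases at the expense of glutathione, and by peroxiredoxins at the expense of thioredoxin. Nrf2, encoded by Nfe2l2, is held down by Keap1 and, when released, binds antioxidant response elements in genes such as Nqo1. In adipose tissue these enzymes guard lipid-rich cells against peroxidation, and Gpx3 is secreted into plasma from several tissues, fat among them.

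Gpx1, Gpx3 and Gpx4 are selenoproteins: selenocysteine is placed in their active site at a TGA codon that would otherwise end translation. The coding stretches around that codon are shown because they define these genes, and because one of them is nearly repeated in a pseudogene that took many of the reads. The capitals mark the TGA, which GENCODE M21 places on GRCm38 at 108339451 to 108339453 of chromosome 9 for Gpx1 (codon 47 of transcript Gpx1-201), at 54907256 to 54907258 of chromosome 11 for Gpx3 (codon 73 of Gpx3-201) and at 80054737 to 80054739 of chromosome 10 for Gpx4 (codon 129 of Gpx4-201), each on the plus strand. The last line is the matching stretch of the pseudogene Gpx4-ps2.
Gpx1: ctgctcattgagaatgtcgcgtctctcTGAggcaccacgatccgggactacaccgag
Gpx3: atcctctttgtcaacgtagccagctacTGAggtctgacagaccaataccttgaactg
Gpx4: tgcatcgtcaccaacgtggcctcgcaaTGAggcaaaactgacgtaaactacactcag
Gpx4-ps2: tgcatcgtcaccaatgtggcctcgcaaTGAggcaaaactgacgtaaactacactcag
Over these 57 bases the pseudogene differed from Gpx4 at 1 base, C15T, counted from 1 at the left end.

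The antioxidant response element was looked for as TGACNNNGC on both strands of the RefSeq promoter windows of GRCm38.p6, which run from 250 bases before to 50 bases after each start site. Of the 10 genes, 9 had a window, and 3 held the motif, against 3781 of all 27025 genes in the table (14%). Sod3 was the gene without an entry. The matches are printed on the gene's strand with the motif in capitals.
Nfe2l2: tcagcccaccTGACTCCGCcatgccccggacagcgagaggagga
Prdx1: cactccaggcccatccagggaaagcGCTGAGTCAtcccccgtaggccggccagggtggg
Sod1: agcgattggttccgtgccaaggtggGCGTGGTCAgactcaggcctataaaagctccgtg
The Nfe2l2 stretch lies at chr2:75704870-75704913 on the minus strand, with the motif 240 to 232 bases before the start. The Prdx1 stretch lies at chr4:116685441-116685499 on the plus strand, with the motif on the opposite strand 133 to 125 bases before the start. The Sod1 stretch lies at chr16:90220681-90220739 on the plus strand, with the motif on the opposite strand 56 to 48 bases before the start. No match was found in the window of Nqo1, and bases more than 250 before a start were not searched. A match is a description of the letters only.

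The libraries held 1538427 to 3053565 estimated counts, and the smallest was control replicate 4. Cyp19a1 itself had 1 to 5.02 estimated counts per control library and 0 to 4 per knockout library, too few to check the labels with, and a 3′ method may read outside the deleted part. The tissue label was met by its markers: all 12 adipocyte markers (Adipoq, Plin1, Fabp4 and others) were detected, with a summed level of 37857 to 50697 CPM (counts scaled to a common library size) in controls and 30388 to 47670.3 CPM in knockouts. Markers of macrophages were the one list of 9 whose sums did not overlap. They were at 995 to 1087 CPM in controls and 1379 to 1777 CPM in knockouts over 12 genes. All 11 tested members had a positive log2 fold change. Of these 11, 2 had an edgeR adjusted p (Benjamini-Hochberg) under 0.05, against 0.168% of all tested genes. Of the 8 epididymis and male tract markers, Crisp1, Defb20, Lcn5, Lcn8 and Svs4 were at 0 in every library, and the sum was 0 to 8.53 CPM. Mitochondrially encoded genes took 11.3% ± 0.814 of the counts of controls and 9.32% ± 0.589 of those of knockouts (SD, n = 4, two-sided exact permutation p = 0.0286, the smallest possible with 4 against 4). In bulk tissue, fewer cells of a type and less RNA per cell cannot be told apart.

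None of the 10 genes passed the test between the genotypes. By edgeR's quasi-likelihood test, which sets the difference against the spread of libraries within a genotype, 0 of 10 had an adjusted p (Benjamini-Hochberg, over all genes) under 0.05. Over all 12480 genes tested that share was 0.168% (21 genes), made up of 0.12% higher and 0.0481% lower in the knockouts. Likewise 0 of 10 had an unadjusted p under 0.05, against 6.39% of all genes. DESeq2 gave 0 of 10 at either threshold, and limma-voom gave 0 adjusted and 1 unadjusted, which was Cat. The log2 fold changes, knockout over control, ran from -0.21 to 0.29, with 5 above and 5 below 0 and a median of 0.02, beside a median of 0.00 over all genes. For every one of the 10 genes the control and knockout libraries overlapped. No overlap was seen in 4.24% of all tested genes, so overlap in all 10 does not set them apart.

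**Figure D1:**
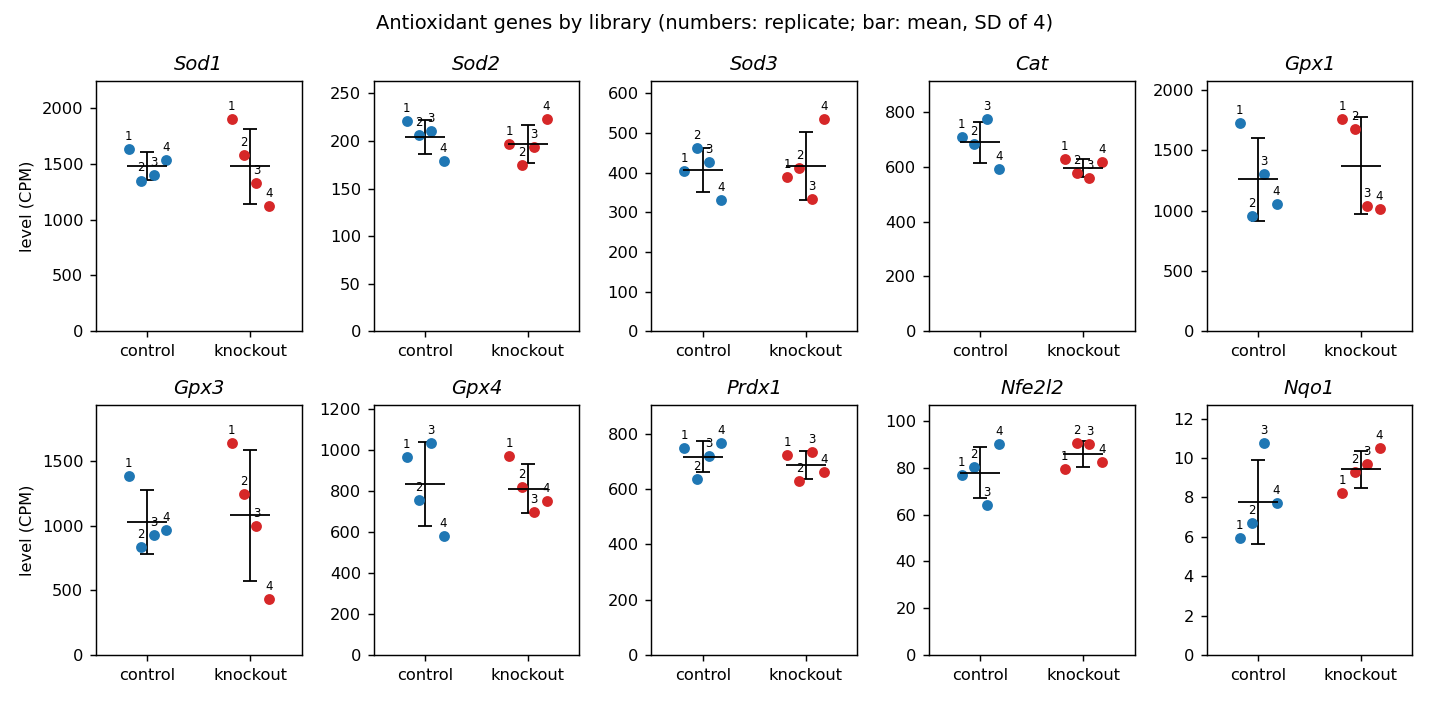
Level in CPM (vertical axes, starting at 0) of the 10 antioxidant genes in the 4 control and 4 knockout libraries; each point is a library labelled with its replicate number, and the bars are the mean and SD. In every panel the 2 genotypes overlap, and the widest scatter is that of Gpx3 in the knockout, from 435 to 1643 CPM.

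Sod1, the copper and zinc dismutase of the cytosol (chromosome 16, 90220754 to 90226329), was at 1635, 1349.8, 1403 and 1530.2 CPM in controls and at 1899, 1574, 1323 and 1118 CPM in knockouts, in the order of replicates 1 to 4 used for each gene. The knockout libraries held both the highest and the lowest value, around the control range. The means were 1479.6 ± 128 and 1479 ± 337 CPM (SD, n = 4), which put the log2 fold change at 0.00 (standard error 0.15, edgeR adjusted p = 0.999). The 95% interval of the fold change ran from 0.799 to 1.25.

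Sod2, the manganese enzyme of the mitochondrial matrix (chromosome 17, 13006846 to 13040063), was at 221, 206, 210.4 and 178 CPM in controls and at 197, 175, 193 and 223 CPM in knockouts. The ranges nearly coincided, with means of 204 ± 18 and 197 ± 19.7 CPM (SD, n = 4), whereas the share of counts from the mitochondrial genome did not overlap between the genotypes. Its log2 fold change was -0.05 (interval of the fold change 0.814 to 1.14, edgeR adjusted p = 0.978).

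Sod3, the secreted dismutase that binds to the extracellular matrix (chromosome 5, 52363791 to 52371418), was at 404, 462, 427 and 330.4 CPM in controls and at 389, 411, 332 and 535 CPM in knockouts. Of the knockout libraries, replicate 4 alone lay above the control range. Sod3 had a log2 fold change of 0.04 (interval of the fold change 0.822 to 1.28, edgeR adjusted p = 0.985).

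Cat, the peroxisomal enzyme that splits hydrogen peroxide into water and oxygen (chromosome 2, 103453849 to 103485160, minus strand), had the smallest p of the 10. Its levels were 708, 684, 775 and 594 CPM in controls and 631, 579.7, 562 and 620.1 CPM in knockouts. All 4 knockout libraries lay below the control mean of 690.1 ± 75.0 CPM, and 2 of them lay below every control library; the overlap came from control replicate 4. The knockout mean was 598 ± 32.8 CPM (SD, n = 4), and edgeR gave a log2 fold change of -0.21 (standard error 0.11, unadjusted p = 0.0898, adjusted p = 0.844). The interval of the fold change, 0.732 to 1.03, spanned no change. Without control replicate 4, the smallest library, the log2 fold change was -0.27 with an unadjusted p of 0.0193 and an adjusted p of 0.567. Without control replicate 3 it was -0.14 (edgeR unadjusted p = 0.267, adjusted p = 0.9775).

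Gpx1, the glutathione peroxidase of cytosol and mitochondria (chromosome 9, 108338903 to 108340343), was at 1731, 952, 1302 and 1056 CPM in controls and at 1759, 1679.9, 1039 and 1016 CPM in knockouts. Each genotype held both high and low libraries, control replicate 1 and knockout replicates 1 and 2 being the highest. The means of 1260.2 ± 346 and 1374 ± 401 CPM (SD, n = 4) gave a log2 fold change of 0.12, with an interval of the fold change of 0.755 to 1.57 and an edgeR adjusted p of 0.968.

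Gpx3, the plasma glutathione peroxidase (chromosome 11, 54902453 to 54910377), was at 1389, 835, 929 and 965 CPM in controls and at 1643, 1249, 996 and 435 CPM in knockouts. Knockout replicate 1 was above and knockout replicate 4 below every control library, so that the highest knockout library was 3.78-fold above the lowest, against 1.66-fold within the control. The means were 1029.7 ± 246 and 1080.4 ± 506 CPM (SD, n = 4). EdgeR gave a log2 fold change of 0.07 (standard error 0.38, adjusted p = 0.992), and the interval of the fold change, 0.566 to 1.94, was the widest of the 10. Without knockout replicate 4 the log2 fold change was 0.33 (edgeR adjusted p = 0.875).

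The 10 genes varied widely in their spread between replicates. As the SD of log2(CPM + 1) within a genotype, it was 0.63 for Gpx3, 0.41 for Gpx1, 0.31 for Gpx4 and 0.25 for both Sod1 and Sod3, and 0.16 for Nfe2l2, 0.14 for Sod2, 0.13 for Cat and 0.11 for Prdx1. Among tested genes of at least 50 CPM, whose median was 0.19, the spread of Gpx3 exceeded that of 98.1% and the spread of Gpx1 that of 93.6%, while Prdx1 exceeded 12.5%. Sod1, Gpx1 and Gpx3 were each highest in replicate 1 of both genotypes, lowest in replicate 4 among the knockout libraries and lowest in replicate 2 among the controls. The summed adipocyte markers were also highest in replicate 1 of both genotypes, at 50697 and 47670.3 CPM, but among the knockout libraries they were lowest in replicate 3 (30388 CPM), with replicate 4 at 32958 CPM. The part of cell makeup in this spread was not tested.

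**Figure D2:**
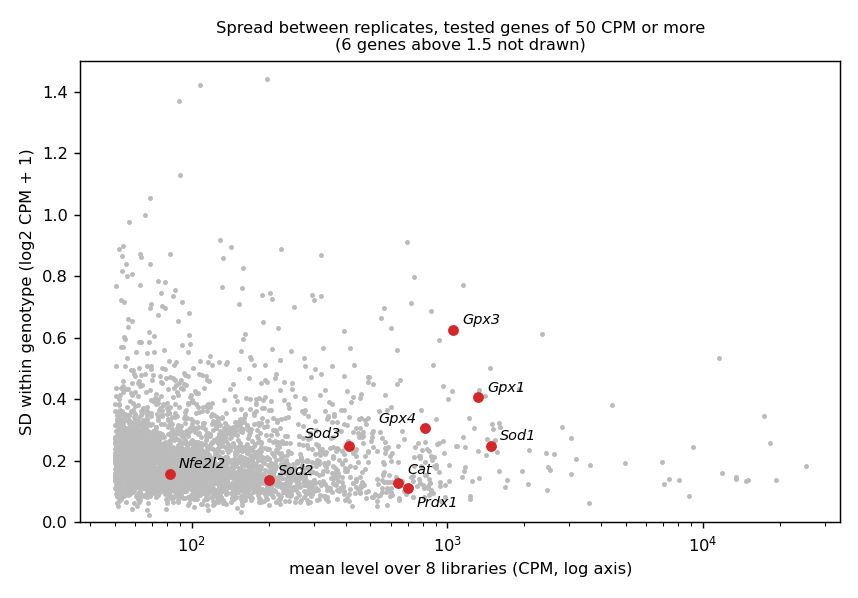
SD of log2(CPM + 1) within a genotype (vertical axis) against mean level over 8 libraries (horizontal log axis, CPM) for tested genes of 50 CPM or more in grey and antioxidant genes in red; Nqo1 is below 50 CPM and is not drawn. Gpx3, at 0.63, and Gpx1, at 0.41, lie far above the median of 0.19, and Prdx1 and Cat lie below it.

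Gpx4, the peroxidase that reduces lipid hydroperoxides in membranes and restrains ferroptosis (chromosome 10, 80047166 to 80056439), was at 964, 756, 1034 and 579 CPM in controls and at 971, 821, 697 and 750.1 CPM in knockouts. All 4 knockout libraries lay within the control range. For Gpx4 the log2 fold change was -0.04 (interval of the fold change 0.751 to 1.25, edgeR adjusted p = 0.985). This value covers only the reads given to the gene itself.

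The pseudogene Gpx4-ps2, a transcribed processed copy (chromosome 10, 45875291 to 45876086), was listed at 675, 478, 639 and 364 CPM in controls and at 486, 421, 357 and 433 CPM in knockouts. Of its 766 words of 31 bases, 684 also occur in Gpx4 transcripts. Of the 746 windows of 51 bases, the length of the insert read, 83.6% are found unchanged in Gpx4, although none of those within the stretch printed above is, since each covers the 1 base that differs. For most of the copy, how the reads divide between gene and copy is uncertain. The pseudogene had a log2 fold change of -0.35 (edgeR adjusted p = 0.816).

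Summed, the pair was at 1638, 1234, 1673 and 942 CPM in controls and at 1457, 1242, 1054 and 1184 CPM in knockouts, and these ranges overlapped too. The log2 fold change of the sum was -0.15 (interval of the fold change 0.694 to 1.16, edgeR adjusted p = 0.942), so counting the copy moved the value but not the call. The share of the pair listed under the pseudogene was 41.2%, 38.7%, 38.2% and 38.6% for controls, against 33.3%, 33.9%, 33.9% and 36.6% for knockouts. Each knockout library was below each control library, with means of 39.2% ± 1.36 and 34.4% ± 1.48 (SD, n = 4, two-sided exact permutation p = 0.0286, the smallest possible). This share was chosen for a test after its values had been seen, and whether it reflects transcription or the assignment of reads was not tested.

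**Figure D3:**
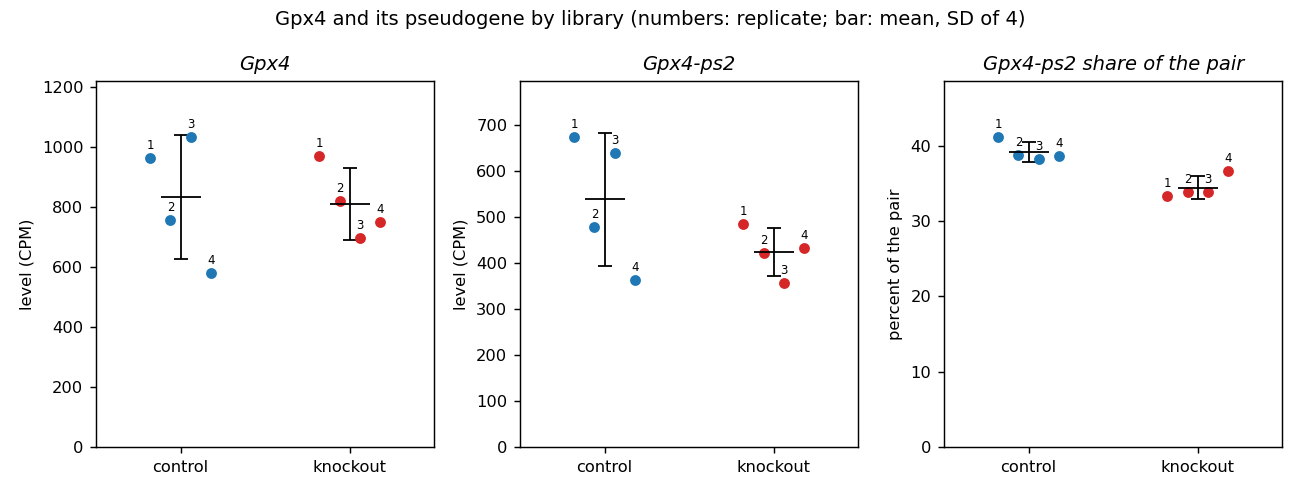
Levels of Gpx4 and of its pseudogene Gpx4-ps2 in CPM, and the percent of the pair listed under the pseudogene, in each of 8 libraries (points with replicate numbers, mean and SD of 4). The levels overlap between the genotypes, while the share is 38.2% to 41.2% in controls and 33.3% to 36.6% in knockouts.

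Prdx1, a cytosolic peroxiredoxin reduced by thioredoxin and a known Nrf2 target (chromosome 4, 116685544 to 116700822), was at 747, 636, 719.6 and 767 CPM in controls and at 723, 629.9, 735 and 661 CPM in knockouts. It was the steadiest of the 9 genes above 50 CPM, and its genotypes overlapped almost fully. The means of 717 ± 57.5 and 687 ± 49.9 CPM (SD, n = 4) gave a log2 fold change of -0.06 (standard error 0.11, edgeR adjusted p = 0.963). The interval of the fold change was 0.812 to 1.13. Its processed copy Gm21399 averaged 1.16 counts per library.

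Nfe2l2, which encodes Nrf2 (chromosome 2, 75675513 to 75704641, minus strand), was at 77.2, 80.3, 64.1 and 90.4 CPM in controls and at 79.7, 90.8, 90.4 and 82.6 CPM in knockouts. All 4 knockout libraries lay above the control mean of 78.0 ± 10.8 CPM, but 3 of them lay within the control range. Nfe2l2 had a log2 fold change of 0.14 (interval of the fold change 0.917 to 1.33, edgeR adjusted p = 0.924). A transcript level does not report on the activity of Nrf2, which is set largely by the stability of the protein.

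Nqo1, the quinone reductase often read as a marker of Nrf2 activity (chromosome 8, 107388225 to 107403206, minus strand), rested on few reads, 12 to 32 estimated counts per library. It was at 5.94, 6.69, 10.8 and 7.69 CPM in controls and at 8.24, 9.28, 9.70 and 10.5 CPM in knockouts. Control replicate 3 was the highest of the 8, and the knockout libraries all lay within the control range. For Nqo1 the log2 fold change was 0.29 (standard error 0.31, edgeR adjusted p = 0.939), and the interval of the fold change, 0.774 to 1.93, was wide at this depth.

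**Figure D4:**
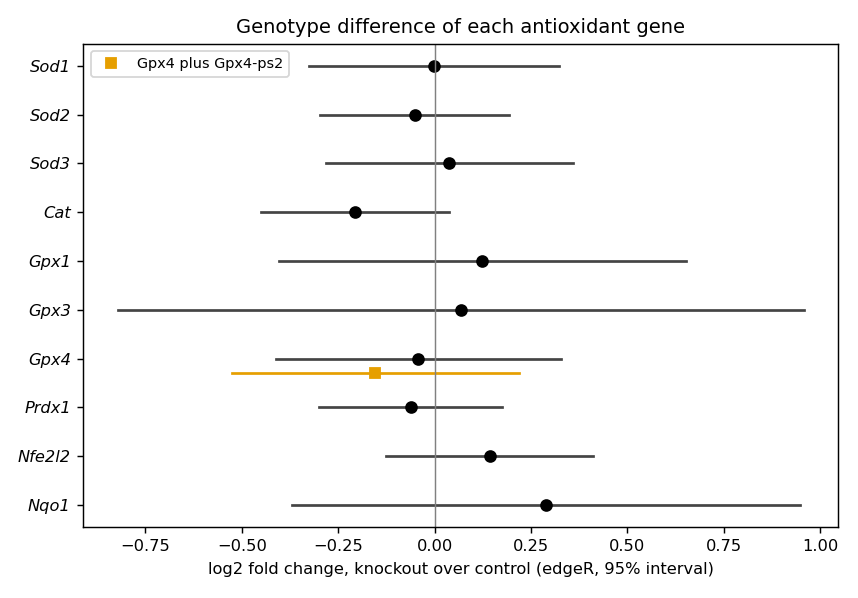
Log2 fold change, knockout over control, from edgeR (points) with its 95% interval (lines) for the 10 antioxidant genes, and for Gpx4 summed with its pseudogene Gpx4-ps2 (orange square). Every interval spans 0, and the intervals run from that of Prdx1 (fold change 0.812 to 1.13), among the narrowest, to that of Gpx3 (0.566 to 1.94).

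The wider antioxidant system was read from 9 lists holding 108 genes, the 10 among them, of which 100 were tested. By edgeR 0 of the 100 passed an adjusted p of 0.05, and DESeq2 and limma-voom also gave 0. At an unadjusted p under 0.05 there were 9 by edgeR, 8 by DESeq2 and 13 by limma-voom; the 9 are 9% of those tested against 6.39% of all genes. Of these 9, 1 was higher and 8 were lower in knockouts, while 3.52% and 2.87% of all tested genes had such a p upward and downward. The libraries did not overlap in 3 of the 100, Ccs, Gstp1 and Mthfd2, or 3%, against 4.24% of all genes. The median log2 fold change of the 100 was -0.04, with 41 above 0, beside 6204 of all 12480 tested genes.

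Among the other enzymes that act on superoxide and peroxides, Ccs, which loads copper into Sod1, was at 29.6 to 31.8 CPM in controls and 17.8 to 29.5 CPM in knockouts (log2 fold change -0.38, edgeR adjusted p = 0.775). All 4 knockout libraries of Ccs lay below the controls, the nearest at 29.5 against 29.6 CPM, and 4.24% of all tested genes had no overlap. Its unadjusted p was 0.0488 by edgeR and 0.0784 by DESeq2. The log2 fold change of Sod1 was 0.00. Of 8 glutathione peroxidases listed, 5 were tested, and Gpx8 and Gpx7, both of the endoplasmic reticulum, had log2 fold changes of 0.31 and 0.10 (edgeR adjusted p = 0.844 and 0.969). Gpx2, Gpx5 and Gpx6 had under 1 count per library on average. All 6 peroxiredoxins were tested and all 6 had negative log2 fold changes, between -0.18 and -0.06 with a median of -0.12. Over all 12480 tested genes, 6276 had a negative one. The edgeR unadjusted p of the 6 ran from 0.285 for Prdx3 to 0.603 for Prdx5. The smallest p belonged to Prdx3 of mitochondria and Prdx4 of the endoplasmic reticulum, at -0.15 and -0.18 (edgeR adjusted p = 0.928 and 0.933).

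In the thioredoxin system, 14 of 14 genes were tested with a median of 0.05 and 7 above 0. Srxn1, which restores overoxidised peroxiredoxins, was at 25.1 ± 1.80 CPM in controls and 32.4 ± 5.78 CPM in knockouts (SD, n = 4), at a log2 fold change of 0.36 and adjusted p by edgeR of 0.787, and 3 of the 4 knockout libraries lay above every control. Sesn1, a stress-induced sestrin, had a log2 fold change of 0.34 (edgeR adjusted p = 0.81).

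The glutathione list had 22 of 24 genes tested, with 0 past the adjusted threshold. By edgeR 4 had an unadjusted p under 0.05, all lower in knockouts, beside 2.87% of all tested genes with such a p downward. The lowest p belonged to Gsta3, an alpha-class glutathione transferase (chromosome 1, 21240589 to 21265661), at 384, 311, 395 and 234 CPM in controls and 249, 187, 207 and 212 CPM in knockouts. The overlap was between control replicate 4 and knockout replicate 1. The means were 331 ± 74.9 and 214 ± 26.0 CPM (SD, n = 4), and edgeR put the log2 fold change at -0.63 (standard error 0.16, adjusted p = 0.26). Without control replicate 4 the log2 fold change was -0.77 and the adjusted p 0.0117, and without the low-count filter the adjusted p was 0.0124. With any other library left out, the edgeR adjusted p stayed above 0.05, reaching 0.806 without control replicate 3 (log2 fold change -0.54). No other gene holds more than 33 of the 4370 words of 31 bases in Gsta3. Gsta4, which conjugates the lipid peroxidation product 4-hydroxynonenal, had means of 41.0 ± 9.55 CPM in controls and 28.2 ± 4.62 CPM in knockouts (SD, n = 4), at a log2 fold change of -0.54 and adjusted p by edgeR of 0.603.

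The Nrf2 regulators had a median of 0.07 over 11 tested genes, with 0 at an unadjusted p under 0.05. Bach1, a repressor that competes with Nrf2 at its elements, was at 25.6 to 33.9 CPM in controls and 29.8 to 38.4 CPM in knockouts (log2 fold change 0.30, edgeR adjusted p = 0.844). Bach2, its relative known from lymphocytes, was at 1.75 to 6.95 and 6.23 to 9.84 CPM (log2 fold change 0.81, edgeR adjusted p = 0.816). Of 27 Nrf2 targets, 26 were tested, with a median of -0.03 and 10 above 0. By edgeR 3 of the 26 had an unadjusted p under 0.05, beside 6.39% of all tested genes. Tkt and Gsta4 were lower and Akr1b8 higher in knockouts, and Gsta4 is also counted in the glutathione list. Tkt, a transketolase of the pentose phosphate pathway, had means of 539.5 ± 121 CPM in controls and 376 ± 66.8 CPM in knockouts (SD, n = 4), at a log2 fold change of -0.52 and adjusted p by edgeR of 0.498, and Akr1b8, an aldo-keto reductase, had means of 19.0 ± 2.33 and 28.0 ± 5.20 CPM (SD, n = 4), at a log2 fold change of 0.57 and adjusted p by edgeR of 0.557.

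The 9 genes of NADPH supply, which feeds the glutathione and thioredoxin reductases, had the lowest median of the 9 lists, at -0.32. Of the 9 genes, 8 had a log2 fold change below 0, as had 6276 of all 12480 tested genes. By edgeR 2 had an unadjusted p under 0.05, both lower in knockouts, beside 2.87% of all tested genes with such a p downward. The adjusted threshold was passed by 0. Aldh1l1, a cytosolic folate enzyme that yields NADPH, had means of 99.4 ± 16.9 CPM in controls and 68.7 ± 9.21 CPM in knockouts (SD, n = 4), at a log2 fold change of -0.53 and adjusted p by edgeR of 0.361. Mthfd2, a mitochondrial enzyme of folate metabolism, was at 21.5 to 22.6 CPM in controls and 12.9 to 17.8 CPM in knockouts, with no overlap (log2 fold change -0.52, edgeR adjusted p = 0.664). Of the adipocyte markers, 10 of 12 had a negative log2 fold change, and their part in these values was not tested.

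The list for selenium and selenoproteins had 14 of 15 genes tested and a median of -0.08, with 0 at an unadjusted p under 0.05. Selenot, a selenoprotein of the endoplasmic reticulum, and Msrb1, which repairs oxidised methionine, had log2 fold changes of -0.19 and -0.30 (edgeR adjusted p = 0.866 and 0.877). Without control replicate 4, Msrb1 had a log2 fold change of -0.46 (edgeR unadjusted p = 0.00257, adjusted p = 0.255). Leaving out each library in turn gave Msrb1 values from -0.46 to -0.23 (edgeR adjusted p 0.255 to 0.9775).

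**Figure D5:**
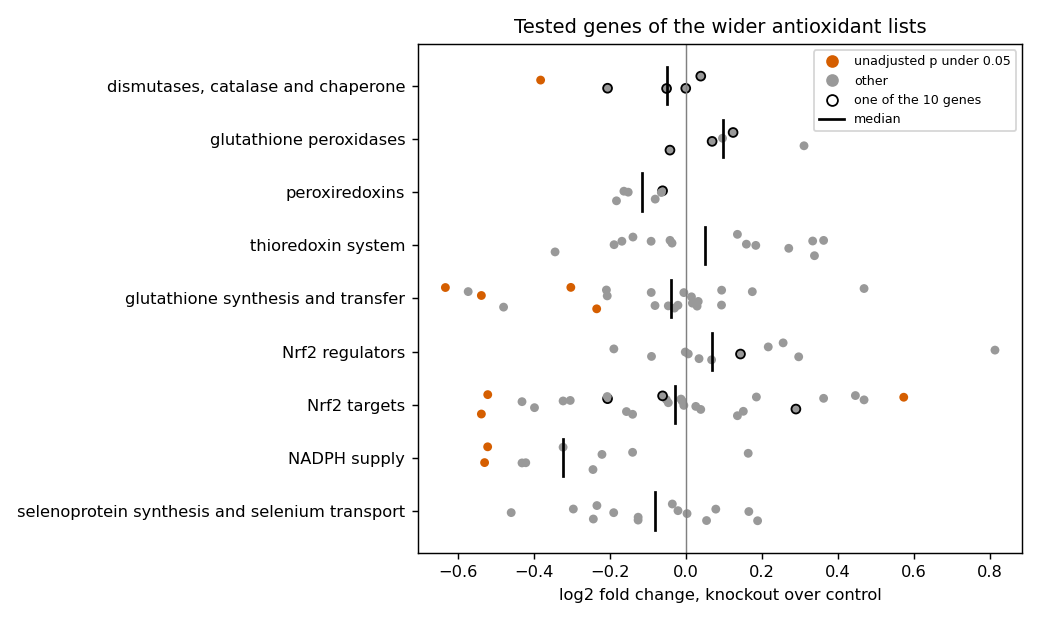
Log2 fold change, knockout over control (horizontal axis), of each tested gene of the 9 wider antioxidant lists; a gene in 2 lists is drawn in both, the 10 genes have a black rim, orange marks an unadjusted edgeR p under 0.05 and the vertical bar is the median of the list. The list medians run from -0.32 for NADPH supply to 0.10 for glutathione peroxidases, and the lowest point is Gsta3 at -0.63.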

How the data were processed

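RNA of 8 libraries was profiled by BRB-seq, a 3′-end method primed with oligo-dT, with 51 bases of insert read, per the labels' protocols. The authors deposited estimated counts per gene, without normalization; Salmon and GRCm38 are named in the submitters' processing notes, with no version or role given, and the annotation and use of molecular identifiers are not given in the sources used here. Identifiers were matched without version to GENCODE M21 (34652 of 34866). Counts were rounded and tested over 12480 genes with edgeR 4.0.16 (R 4.3.3; robust quasi-likelihood, TMM, filterByExpr, genotype as the only term), with Benjamini-Hochberg adjustment over all of them. CPM used TMM-scaled sizes. Standard errors and 95% intervals were derived from the F statistic. Single values per library were compared by exact permutation in scipy 1.17.1. Replicates differed by more than sampling noise (chi-square per degree of freedom 4.49 to 9.42). On simulated counts for this comparison (12562 genes) edgeR recovered 41% of 2-fold and 94% of 4-fold changes. The simulation changed 200 tested genes drawn at random and gave every gene the same dispersion. These shares therefore do not describe any single gene, since spreads differed between genes.

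Alternatives were scaling by RLE or by upper quartiles, testing without a filter on low counts, DESeq2 1.42.0 and limma-voom (limma 3.58.1). The limma-voom fit weighted each library by its estimated quality. Further alternatives were a replicate block, each library left out, and each gene summed with copies holding at least 50% of their 31-base words in it. From each wider list, test results were given for up to 2 others, those with the smallest p. Gstp1 was named because its libraries did not overlap. The genes and lists were chosen with earlier results of these data known.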

Additional observations from a re-analysis of the deposited data

Results flagged for a closer look

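Of 76 groups of 4 libraries examined for a library far from the other 3, 5 held one, where chance gives 3.8; none was among the 10 antioxidant genes. Gpx8 was at 23.4 CPM in knockout replicate 1, against 32.1 to 33.9 CPM in the other knockout libraries. Sesn1 stood at 39.0 CPM in one control library, replicate 3, the other controls being at 30.1 to 31.4 CPM. For Bach1, control replicate 1 was at 33.9 CPM and the other controls at 25.6 to 26.5 CPM. For Msrb1, control replicate 4, the smallest library, was at 94.9 CPM and the others at 164 to 169 CPM. The summed epididymis and male tract markers were at 8.53 CPM in knockout replicate 3, against 0 to 0.458 CPM in the other knockout libraries.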

How the results depend on the processing

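None of the 10 antioxidant genes passed an adjusted p of 0.05 under any of the 15 alternative settings, where the smallest adjusted p was 0.567. Of the wider lists, 1 gene, Gsta3, passed without the low-count filter (1 of 107 tested) and without control replicate 4, so the count was 0 to 1 when a library was left out. The count over all genes, 21, was 58 without the filter, 55 with DESeq2, 6 with the replicate block and 4 to 43 with 1 library left out (4 without control replicate 2, 43 without control replicate 4). Same-numbered libraries correlated in their deviations at 0.25, -0.06, -0.01 and -0.24. Whether they share more than a number was not tested. Gpx3 reversed with the replicate block (-0.045), and Sod1 (0.029) and Sod3 (-0.042) with limma-voom; the cause was not tested. When 1 library was left out, log2 fold changes that changed sign ranged from -0.14 to 0.11 for Sod1, -0.12 to 0.00091 for Sod2, -0.11 to 0.13 for Sod3, -0.017 to 0.32 for Gpx1, -0.21 to 0.33 for Gpx3 and -0.18 to 0.079 for Gpx4. The other 4 kept their sign, from -0.27 to -0.14 for Cat, -0.12 (without control replicate 2) to -0.02 (without knockout replicate 2) for Prdx1, 0.06 (without control replicate 3) to 0.21 (without control replicate 4) for Nfe2l2 and 0.17 (without control replicate 1) to 0.49 (without control replicate 3) for Nqo1. The difference in mitochondrial share was -2.22 to -1.575 percentage points when 1 library was left out, where no p below 0.0571 is possible; this was added after seeing the data. Nqo1, at 12 to 32 counts, is limited by depth, and Gpx3 by the spread between replicates.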
